A study of Dunaliella viridis with 39 samples.

Results

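The second day of growth on nitrate was followed in Dunaliella viridis strain dumsii by comparing the 3 nitrate libraries taken 51 h after inoculation with the 3 taken at 27 h, across every locus of the count table. These 6 libraries are all of the nitrate libraries at those 2 times, out of 39 in the study, and were chosen by their labels alone. The nitrate cultures held 5 mM KNO3 and came from an inoculum that is also labelled as grown on nitrate, which stands apart as a group sampled at the moment of inoculation. The other media held 5 mM L-glutamine, 5 mM L-glutamate or no added nitrogen, and each medium was sampled 3, 27 and 51 h after inoculation, which made 13 groups of 3 libraries. All cultures stood under constant cool white light (125 µmol photons/m2/s) at 23.5 °C and were started at the same cell density in 450 ml. Each culture was set up in duplicate, the experiment was carried out 3 times, and the replicate number marks the repeat, so libraries with the same number at 51 h and 27 h came from the same repeat. The 51 h and 27 h samples differ in time and in everything else that changes in a growing culture, such as cell density, and these cannot be told apart.

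Dunaliella is a genus of single-celled green algae of salt water that lack a rigid cell wall and balance outside salt with internal glycerol. Nitrate is taken up by membrane transporters, reduced to nitrite by nitrate reductase and to ammonium by nitrite reductase, and the ammonium enters amino acids through glutamine synthetase and glutamate synthase. In batch culture, cells draw nutrients down and shade each other as they multiply, and transcript levels are known to follow such changes. Loci carry only numbered IDs in the files, which pair none of them with a gene name, so no locus can be given a role and no pathway could be counted. The labelled medium and time could therefore not be checked against a marker gene.

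Total counts ran from 6329683 to 11482354 over the 6 libraries, and the filter on low counts left 17569 of the 18495 loci for testing. Libraries of the same time correlated at Pearson's r of 0.955 to 0.976 over loci, and libraries of different times at 0.952 to 0.981, where loci are not independent points. The single locus Locus_10041 was the most abundant in all 6 libraries. It took 19.7%, 17.9% and 16.8% of the counts at 51 h, against 23.5%, 21.9% and 18.2% at 27 h (exact permutation test, two-sided, p = 0.2; the smallest possible with 3 against 3 is 0.1). The share of the 10 most abundant loci was 55.6%, 40.4% and 41.5% at 51 h and 53.7%, 51.9% and 46.1% at 27 h (exact permutation p = 0.4). Replicate 1 at 51 h and replicates 1 and 2 at 27 h were sequenced in run 1 and hold the 3 highest of these shares, while the other 3 libraries were in run 2. Replicate 2 is the one whose libraries were in different runs at the 2 times.

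Few loci changed, and most of those that did were higher at 51 h. At an adjusted p below 0.05 (edgeR quasi-likelihood test, Benjamini-Hochberg over all loci), 63 loci rose and 5 fell, which is 0.387% of the loci tested, 0.359% higher and 0.0285% lower. Of these, 53 rose and 2 fell at least 2-fold, and 22 rose at least 4-fold. The median log2 fold change was 1.65 over the risen loci, with a range of 0.67 to 9.02, and −0.01 over all tested loci. Without adjustment, 982 loci had p below 0.05. The 95% interval of the change lay wholly within 2-fold in either direction for 61.7% of loci. With the replicate number as a block, the same test called 81 higher and 12 lower. The TPM values, tested with limma as log2(TPM + 1), gave 13 higher and 0 lower.

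The groups did not overlap at 60 of the 63 risen and at all 5 fallen loci, against 12.6% of all tested loci in either direction (6.2% with all 51 h libraries higher and 6.41% with all of them lower). The 3 repeats went the same way at 62 of the risen loci and all 5 of the fallen, against 34.4% of all loci. These shares describe loci that were called on the same libraries and support nothing further. The loci nearest the threshold were Locus_9427 and Locus_470 just inside it, with edgeR adjusted p of 0.0427 and 0.0464, and Locus_6380 and Locus_16583 just outside, with 0.0504 and 0.0564.

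**Figure D1:**
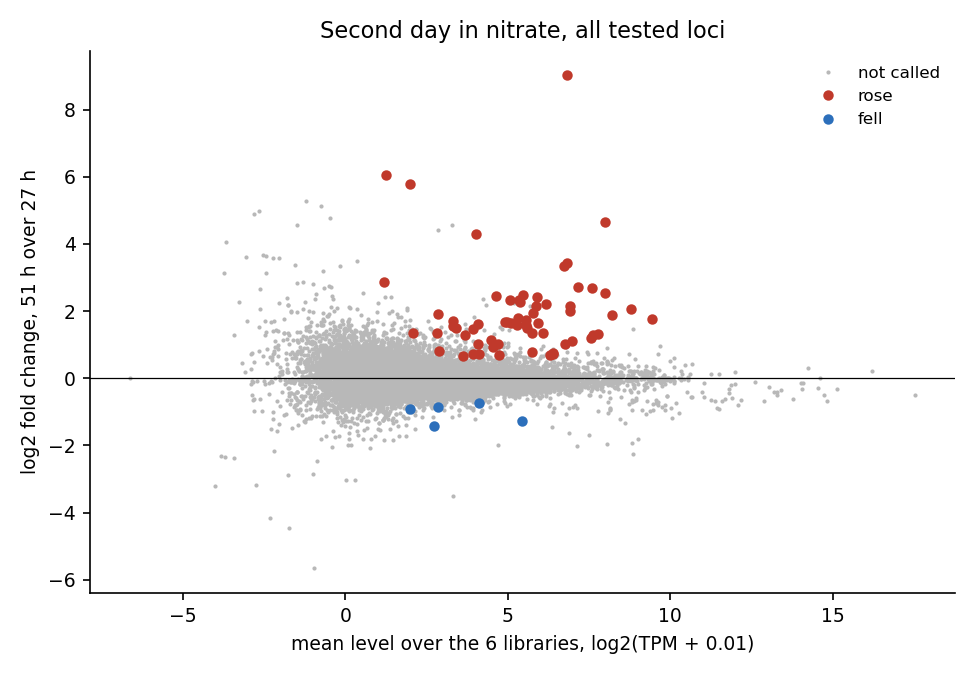
Log2 fold change from edgeR, 51 h over 27 h, against the mean level over the 6 nitrate libraries as log2(TPM + 0.01), with each point a tested locus. The 63 loci that rose lie above 0 and the 5 that fell lie just below it, among grey points for loci that were not called.

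The risen loci spanned rare to abundant transcripts. Levels between loci are given as transcripts-per-million (TPM), a unit corrected for transcript length. Above a mean of 100 TPM, 17 loci rose and 0 fell of 636 tested (2.67% called). Between 10 and 100 TPM, 37 rose and 2 fell of 4976 (0.784%), and below 10 TPM 9 rose and 3 fell of 11957 (0.1%). The median level of the risen loci was 72.7 TPM at 51 h and 15.7 TPM at 27 h, and that of all tested loci was 5.84 and 4.77 TPM at the same times. Summed, the risen loci made up 8542 TPM at 51 h and 1875 TPM at 27 h. These classes use the mean over both times, so a rise lifts a locus into a higher class, and 14 of the 17 were above 100 TPM by that mean but not at 27 h. By the 27 h mean alone, 3 of the 63 risen loci were above 100 TPM, 40 between 10 and 100 TPM and 20 below 10 TPM.

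The largest change was that of Locus_16559, which was close to absent at 27 h and plentiful at 51 h. Counts-per-million (CPM) are used here for the level of 1 locus across libraries. Its level was 98.8, 229 and 227 CPM at 51 h, against 0.455, 0.379 and 0.265 CPM at 27 h, where the 3 libraries held 8 reads of it in all. Every 51 h library was far above every 27 h library, and replicate 1 was the lowest at 51 h. The log2 fold change was 9.02 (SE 0.49, edgeR adjusted p = 7.51e-16), and its size rests on the few reads at 27 h. The inoculum held 12.98, 7.25 and 8.79 CPM and the 3 h libraries 3.49, 3.95 and 1.76 CPM. The locus had therefore fallen over the first day, by 3.20 on the log2 scale (SE 0.61, edgeR adjusted p = 0.0013), and at 51 h it stood above the inoculum by 4.25 (SE 0.33, edgeR adjusted p = 6.51e-11). Its change on the second day differed from that on the first by 12.21 (SE 0.99, edgeR adjusted p = 2.28e-10).

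Locus_1717 rose to 438, 763 and 626 CPM at 51 h, against 17.6, 20.8 and 34.1 CPM at 27 h. The groups did not overlap, with all 51 h libraries far above all 27 h libraries. The log2 fold change was 4.64 (SE 0.30, edgeR adjusted p = 8.84e-14). At 3 h it held 15.1, 34.0 and 23.5 CPM, a range that spans most of the 27 h values, and in the inoculum 144, 139 and 167 CPM. It thus had fallen by 3 h relative to the inoculum, by 2.62 on the log2 scale (SE 0.27, edgeR adjusted p = 4.49e-08), did not pass the test over the first day (edgeR adjusted p = 0.999), and rose over the second.

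Locus_1065 was chosen after its values were seen, as the risen locus with the highest mean level, 699 TPM over the 6 libraries. It held 1187, 1608 and 1365 CPM at 51 h, against 396, 446 and 394 CPM at 27 h. The 27 h libraries lay close together and all below the 51 h libraries, and the difference came to 1.75 on the log2 scale (SE 0.21, edgeR adjusted p = 9.16e-07). It also rose over the first day, by 1.13 (SE 0.21, edgeR adjusted p = 9.49e-04), with 141, 241 and 181 CPM at 3 h. The second-day change was 0.62 above the first-day change (SE 0.36), a difference that did not pass (edgeR adjusted p = 0.513).

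All 5 fallen loci fell by modest amounts. Over the first day, which shares the 27 h libraries, 2 of them had climbed, 2 had fallen and 1 was not called. Of all loci, 2.56% were called higher and 2.89% lower on that day. Locus_134 held 11.5, 12.5 and 14.4 CPM at 51 h, against 31.8, 33.9 and 38.3 CPM at 27 h. There was no overlap, and the 3 libraries of each time lay close together. Its log2 fold change was −1.43 (SE 0.28, edgeR adjusted p = 0.0037), after a rise of 1.54 over the first day (SE 0.27, edgeR adjusted p = 5.57e-04). Locus_568 held 24.7, 24.4 and 26.6 CPM at 51 h, against 70.2, 49.4 and 64.2 CPM at 27 h. Its 51 h libraries were nearly equal, all below the 27 h libraries, and the log2 fold change was −1.28 (SE 0.28, edgeR adjusted p = 0.0143). Over the first day it had risen by 3.46 (SE 0.30, edgeR adjusted p = 8.74e-10). The second-day change differed from the first-day change by −2.97 for Locus_134 (SE 0.45, edgeR adjusted p = 2.00e-04) and by −4.74 for Locus_568 (SE 0.46, edgeR adjusted p = 2.12e-08). At 51 h both still stood above the inoculum, Locus_134 by 1.87 (SE 0.32, edgeR adjusted p = 2.63e-04) and Locus_568 by 3.02 (SE 0.33, edgeR adjusted p = 8.57e-08).

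The remaining 3 loci that fell are given because they complete a count of 5, after their values were seen. Locus_1353 held 15.9, 24.4 and 23.7 CPM at 51 h, against 36.1, 40.3 and 40.7 CPM at 27 h (log2 fold change −0.86, edgeR adjusted p = 0.00513). Locus_4020 held 6.92, 6.38 and 8.76 CPM at 51 h, against 15.5, 12.3 and 14.2 CPM at 27 h (−0.92, edgeR adjusted p = 0.0297). Locus_6687 held 17.4, 17.9 and 17.9 CPM at 51 h, against 33.1, 26.1 and 30.3 CPM at 27 h (−0.75, edgeR adjusted p = 0.04). None of the 3 overlapped between times. Over the first day Locus_1353 had a log2 fold change of −1.60 (edgeR adjusted p = 4.74e-08) and Locus_6687 one of −1.07 (edgeR adjusted p = 1.38e-04). Locus_4020 was not called on that day (−0.11, edgeR adjusted p = 0.806). Of the 5 fallen loci, Locus_134 alone was called whichever of the 6 libraries was left out. Locus_568 lost its call in 5 of those fits, with edgeR adjusted p up to 0.141. Locus_6687 lost it in 5, with adjusted p up to 0.311, Locus_4020 in 4, up to 0.276, and Locus_1353 in 1, without 51 h replicate 1, at 0.0784. The count of 5 lower loci was 2 without replicate 1 or 3 at 27 h, 2 without replicate 1 or 2 at 51 h and 3 without 51 h replicate 3. Of the 63 risen loci, 39 were called in all 6 such fits.

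**Figure D2:**
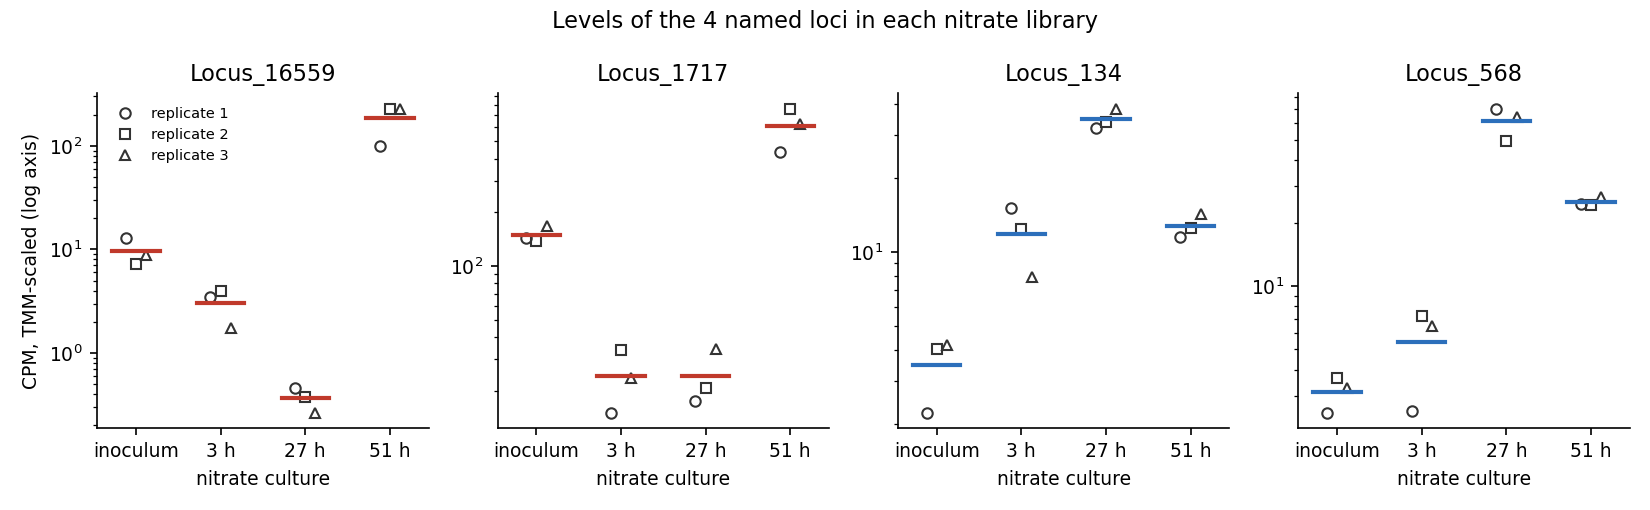
CPM on a log axis of Locus_16559, Locus_1717, Locus_134 and Locus_568 in the inoculum and in nitrate at 3, 27 and 51 h, with a symbol per replicate and a bar for the mean of 3 libraries. The first 2 loci are higher in all 51 h libraries than in any 27 h library, and the other 2 are lower in all of them.

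Among the 63 risen loci, 3 overlapped between the times, and in each of them 1 library stood far above the rest. These were named for that overlap, after their values were seen. Locus_16667 held 276, 6.27 and 5.95 CPM at 51 h, against 6.37, 10.98 and 8.76 CPM at 27 h, and Locus_11689 held 128, 3.25 and 2.55 CPM at 51 h, against 3.79, 0.947 and 1.77 CPM at 27 h. Within the nitrate libraries at 51 h and 27 h, both were high in replicate 1 at 51 h alone. Replicate 1 was also the highest of its group in glutamine at 51 h, with 29.4, 5.08 and 6.10 CPM of Locus_16667 and 16.9, 5.08 and 2.84 CPM of Locus_11689. The same held without nitrogen at 3 h, with 42.4, 7.30 and 10.7 CPM of Locus_16667 and 27.4, 3.15 and 4.19 CPM of Locus_11689. It did not hold in every group. Locus_11689 stood at 8.23, 9.89 and 12.86 CPM without nitrogen at 27 h. Locus_16667 stood at 7.67, 9.49 and 7.21 CPM in glutamine at 27 h. In nitrate, Locus_7345 was high in replicate 2 at 51 h instead, with 16.1, 118 and 7.65 CPM at 51 h, against 10.8, 10.98 and 7.17 CPM at 27 h. The edgeR adjusted p was 0.0343 for Locus_16667, 0.0142 for Locus_11689 and 0.0206 for Locus_7345. Without the high library of each, the call was lost, and each was called in 2 of the 6 fits that leave out a library. Locus_16667 was the 1 risen locus not called with the replicate block.

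**Figure D3:**
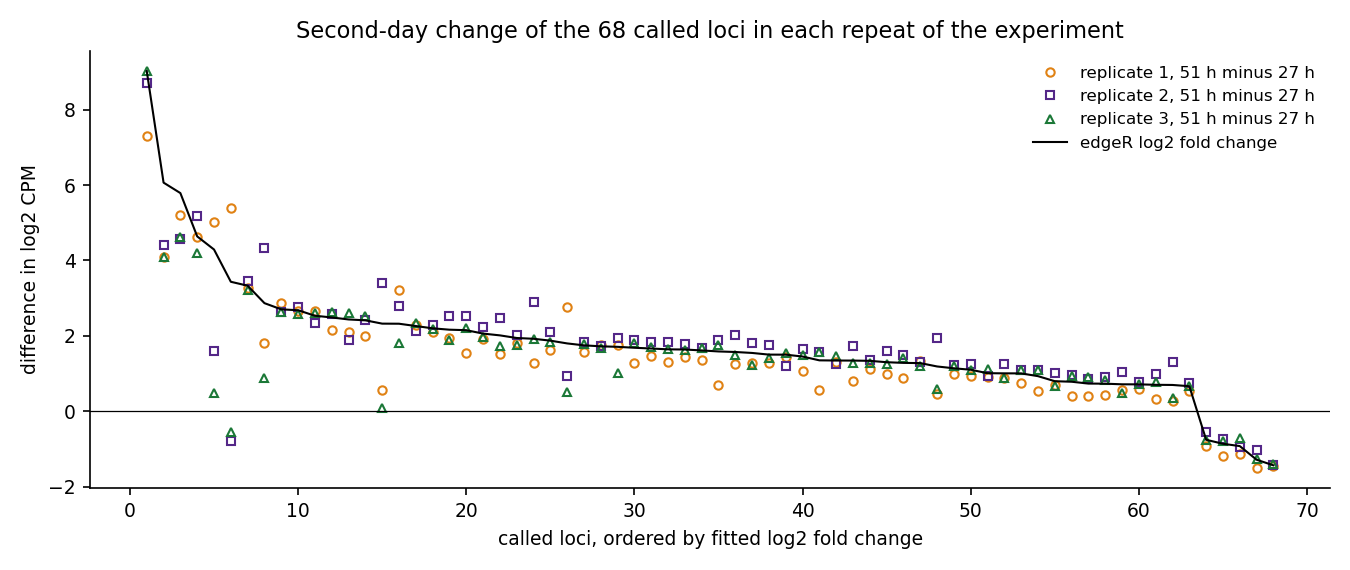
Difference in log2 CPM, 51 h minus 27 h, within each of the 3 repeats for the 68 called loci, ordered by the edgeR log2 fold change, which the black line shows. For 62 of the 63 risen and all 5 fallen loci the 3 symbols lie on the same side of 0.

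Many of the risen loci had been lowered when the cells were moved. Transfer of the inoculum into fresh nitrate medium shares no library with the second day, and at 3 h against the inoculum, where 4.1% of all loci changed, 27 of the 63 risen loci were lower and 0 higher. The 27 are 42.9% of the risen loci and 9% of the 300 loci that transfer lowered, where 1.71% of all tested loci were called lower. The median log2 fold change of the 63 on transfer was −0.55, and 59 of them were negative. Over all tested loci the median was 0.02, and 8433 of 17569 were negative. Nitrate 3 h replicate 2, in which the 10 most abundant loci took 18.2% of the counts, enters that comparison. Without it and 2 other libraries that stand apart, 25 of the 63 were lower on transfer.

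The mean log2 CPM over the 63 risen loci was 5.09 ± 0.07 in the inoculum, 4.38 ± 0.22 at 3 h, 3.98 ± 0.10 at 27 h and 5.80 ± 0.19 at 51 h in nitrate (SD, n = 3 each). The median locus of the set stood at 41.1 CPM in the inoculum, 27.2 CPM at 3 h, 21.1 CPM at 27 h and 64.4 CPM at 51 h. The set therefore had its lowest mean at 27 h and its highest at 51 h. By locus, 54 of 63 (85.7%) had their highest mean of the 4 stages at 51 h, against 18.4% of all tested loci. The lowest mean fell at 27 h in 39 (61.9%), against 28.6%. Both shares are drawn up by the choice of loci that differ between those 2 times, and neither was tested.

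Both times were also set against the inoculum, whose libraries the 2 comparisons share, so each is given on its own. At 51 h, 29 of the 63 were higher and 4 lower than in the inoculum, with a median log2 fold change of 0.66, where 0.649% of all loci were called higher and 1.05% lower. At 27 h, 0 were higher and 38 lower, with a median of −0.94, where 2.9% of all loci were called lower. The 63 loci were chosen on these same 51 h and 27 h libraries, which draws up the 29 higher and the 38 lower. Over all loci, 299 differed from the inoculum at 51 h (1.7%) and 1013 at 27 h (5.77%). The first day shares the 27 h libraries with the second. From 3 to 27 h the risen loci had a median change of −0.23, with 6 called higher and 19 lower. Of all loci, 2.56% were called higher and 2.89% lower on that day. The choice of loci that were lower at 27 h than at 51 h draws the 19 up.

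The fallen loci stood higher after transfer than before it. At 3 h against the inoculum 4 of the 5 were higher and 0 lower, where 2.39% of all loci were called higher, but only 1 was without the 3 libraries that stand apart. The mean log2 CPM over all 5 stood at 3.67 ± 0.06 in the inoculum, 4.53 ± 0.21 at 3 h, 5.01 ± 0.11 at 27 h and 3.96 ± 0.14 at 51 h in nitrate (SD, n = 3 each). The set mean thus stood highest at 27 h, and the 51 h mean lay nearer the inoculum. The choice of loci that fell from 27 h draws the 27 h mean up. By locus, 2 of the 5 had their highest mean of the 4 stages at 27 h, as had 4523 of the 17569 tested loci. At 51 h, 2 of the 5 were called higher than in the inoculum and 2 lower, where 0.649% of all loci were called higher and 1.05% lower. The set mean does not stand for each locus.

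**Figure D4:**
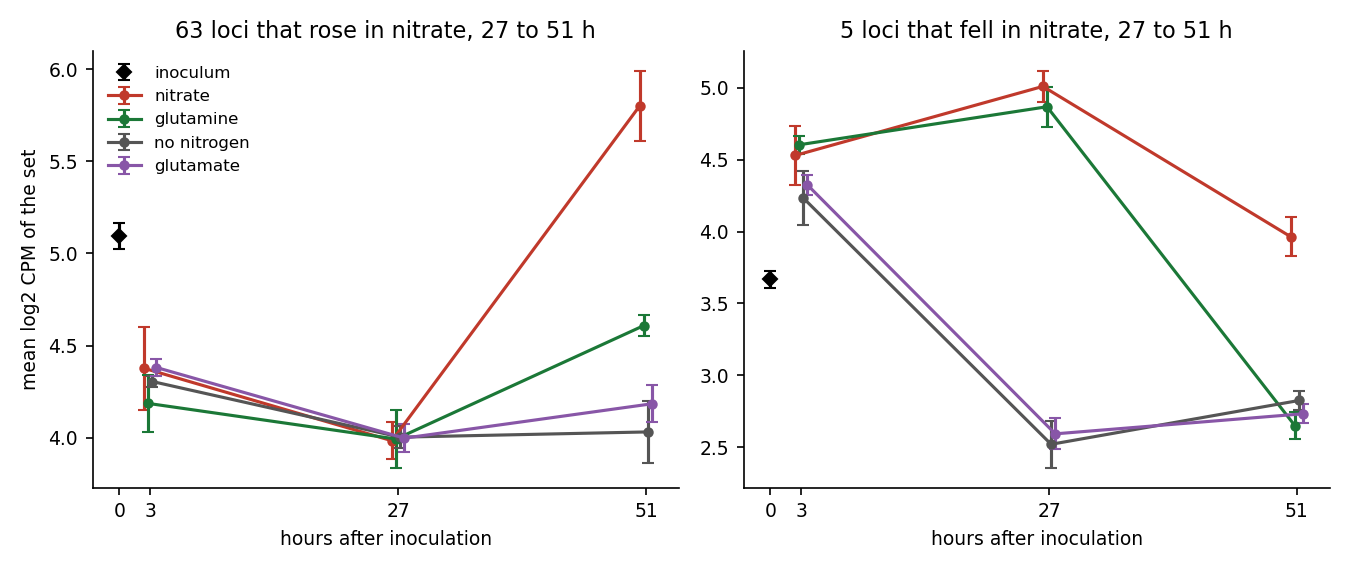
Mean log2 CPM over the 63 risen loci (left) and the 5 fallen ones (right) over the second day in nitrate, by hours after inoculation, with the inoculum at 0 h, a line per medium and error bars of 1 SD over 3 libraries. The risen set stands at 5.80 in nitrate at 51 h, against 3.98 at 27 h, and the fallen set at 3.96 against 5.01.

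The second day on nitrate was set beside the second day in the other media, whose cultures share no library with it. Over those same hours 1702 loci changed in glutamine (9.69%), 94 without nitrogen (0.535%) and 42 in glutamate (0.239%), against 68 in nitrate. Glutamate 51 h replicate 3 and no nitrogen 51 h replicate 1, which enter here, are among the 3 libraries that stand apart. In the former the 10 most abundant loci took 17.5% of the counts, and the latter held counts at 15777 loci, against 18414 and 18462 in replicates 2 and 3 of its group. The 94 and the 42 were not counted without these libraries. In glutamine, 23 of the 63 risen loci were also higher and 4 were lower, with a median log2 fold change of 0.65. The 23 are 36.5% of the risen loci and 2.81% of the 819 loci that rose in glutamine, where 4.66% of all loci were called higher and 5.03% lower. Without nitrogen 1 was higher and 0 lower, with a median of 0.11, where 0.233% of all loci were called higher. In glutamate likewise 1 was higher and 0 lower, with a median of 0.20, where 0.125% of all loci were called higher. At 39 of the 63 loci nitrate was thus the only one of the 4 media in which the test was passed upwards, which does not show that the other media differed from it.

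The 23 loci that rose in both nitrate and glutamine and the 27 that transfer had lowered had 14 loci in common. A further 27 of the 63 were in neither set. The overlap of 14 was not tested, and no share over all loci was counted for it. Under limma on log2(TPM + 1), where fewer loci pass in every comparison, 2 of the 63 rose in glutamine and 2 were lowered by transfer.

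**Figure D5:**
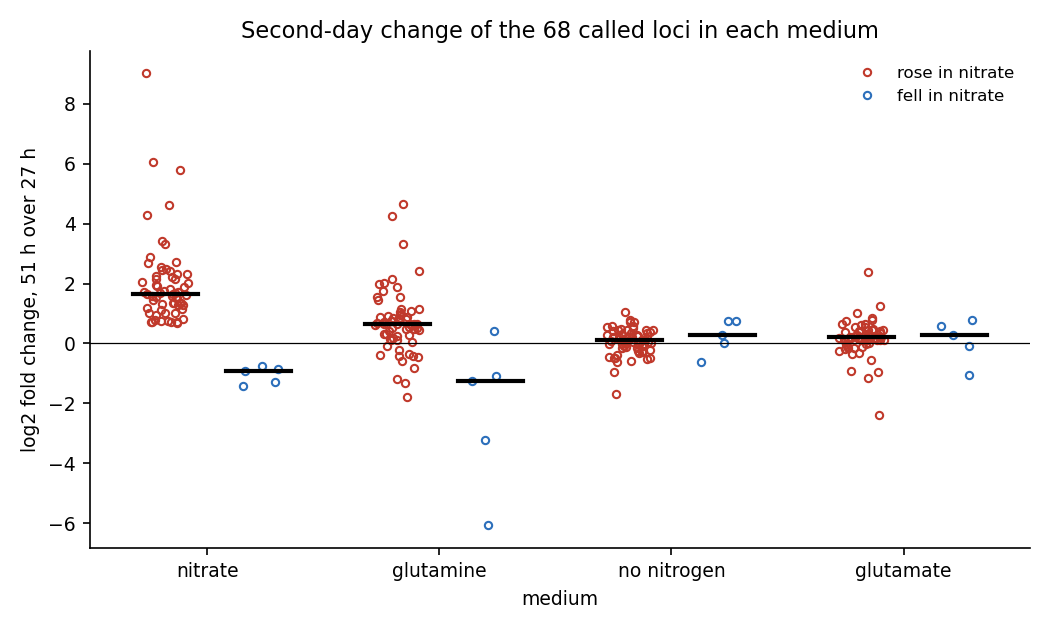
Log2 fold change, 51 h over 27 h, of the 68 loci called in nitrate, shown for each of the 4 media, with a point per locus and a black bar at the median of the loci that rose and of those that fell. The medians of the risen loci are 1.65 in nitrate and 0.65 in glutamine, and lie at 0.11 without nitrogen and 0.20 in glutamate.

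The change itself was then tested between media, as the second-day change in nitrate minus that in another medium. Against no nitrogen, 54 loci differed (0.307%), 41 with a larger (0.233%) and 13 with a smaller change in nitrate (0.074%). Against glutamate, 36 differed (0.205%), 29 larger (0.165%) and 7 smaller (0.0398%). Against glutamine, 311 differed (1.77%), 120 larger (0.683%) and 191 smaller (1.09%). Of the 63 risen loci, 31 had a larger change in nitrate than without nitrogen, 24 a larger one than in glutamate and 23 a larger one than in glutamine, and 0 had a smaller one in any of these 3 tests. The differences hold the same nitrate libraries that chose the 63 loci, which draws these counts up. Against all 3 media at once, 13 of the 63 risen loci and 1 of the 5 fallen loci differed. This was counted among the called loci alone, and its share over all loci was not counted. With the replicate number as a block, 471 loci differed against glutamine (199 larger, 272 smaller) and 67 against glutamate (49 larger, 18 smaller). Under limma on log2(TPM + 1) the split was 24 larger and 8 smaller against glutamine, 5 and 0 against no nitrogen, and 2 and 0 against glutamate. The 311 against glutamine were 199 without nitrate 27 h replicate 1. The 120 larger ones were 79 without glutamine 27 h replicate 3, and 78 without nitrate 27 h replicate 1 or without nitrate 51 h replicate 2. Against no nitrogen, the 41 larger were 26 without nitrate 51 h replicate 2. The 13 smaller were 8 when no nitrogen 51 h replicate 1 or 3 was left out and 7 without nitrate 27 h replicate 3, and the 7 smaller against glutamate were 4 without nitrate 27 h replicate 3.

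Locus_16559 showed the largest difference in each of these tests among loci with enough counts and no overlap of the repeats. At 51 h it averaged 185 ± 74.7 CPM in nitrate cultures, 1.26 ± 0.37 CPM in those with glutamine, 0.688 ± 0.279 CPM in those with no nitrogen and 0.438 ± 0.288 CPM in those with glutamate (SD, n = 3 each). At 27 h all 4 media averaged under 1 CPM. The nitrate change was larger by 9.34 on the log2 scale than without nitrogen (SE 0.94, edgeR adjusted p = 3.75e-08), by 7.86 than in glutamine (SE 0.96, edgeR adjusted p = 8.34e-07) and by 9.98 than in glutamate (SE 0.95, edgeR adjusted p = 2.25e-08).

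Locus_1717 rose in glutamine too, to 123 ± 18.6 CPM at 51 h, against 22.9 ± 9.46 CPM at 27 h (SD, n = 3 each; log2 fold change 2.40, edgeR adjusted p = 4.98e-08). Its change in nitrate was still larger by 2.23 (SE 0.37, edgeR adjusted p = 1.99e-04). It was larger by 3.85 than without nitrogen (SE 0.38, edgeR adjusted p = 3.25e-08) and by 3.61 than in glutamate (SE 0.38, edgeR adjusted p = 1.75e-07). Its own changes in those 2 media, 0.79 and 1.03, did not pass (edgeR adjusted p = 0.184 and 0.0947). Locus_1065, in contrast, fell in glutamine by 1.31 (SE 0.21, edgeR adjusted p = 3.48e-05), and its change in nitrate was larger than in glutamine by 3.06 (SE 0.30, edgeR adjusted p = 7.18e-09).

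In glutamine 4 of the 5 fallen loci also fell, where 5.03% of all loci were called lower. The change in nitrate minus that in glutamine was called positive at 2 of the 5 and negative at 1, where 1.77% of all loci differed. The difference was called negative at 2 against no nitrogen (0.307% of all loci differed) and at 2 against glutamate (0.205%). These tests hold the same nitrate libraries that chose the 5 loci, which draws the negative counts up. Locus_4020 passed none of these differences. Locus_568 averaged 0.753 ± 0.173 CPM at 51 h in glutamine, against 54.0 ± 10.04 CPM at 27 h (SD, n = 3 each), a log2 fold change of −6.07 (edgeR adjusted p = 4.25e-13). The fall in nitrate was smaller by 4.79 on that scale (edgeR adjusted p = 6.24e-08). Locus_134 fell in glutamine by 3.24 (edgeR adjusted p = 2.35e-09), and the fall in nitrate was smaller by 1.81 (edgeR adjusted p = 0.0116). Both loci were already under 2 CPM at 27 h in the cultures with no nitrogen and with glutamate.

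Locus_1353 rose over the second day without nitrogen, by 0.76 (edgeR adjusted p = 0.0183), and in glutamate, by 0.79 (edgeR adjusted p = 0.0204). In nitrate it averaged 21.4 ± 4.70 CPM (51 h) and 39.0 ± 2.56 CPM (27 h), while without nitrogen it averaged 172 ± 26.1 CPM (51 h) and 102 ± 13.7 CPM (27 h) (SD, n = 3 each). The difference of the changes was −1.62 against no nitrogen (SE 0.23, edgeR adjusted p = 7.34e-05), −1.64 against glutamate (SE 0.23, edgeR adjusted p = 5.07e-05) and −1.27 against glutamine (edgeR adjusted p = 0.00112).

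At some loci the changes differed while that in nitrate did not itself pass. In nitrate Locus_11884 averaged 1.19 CPM (51 h) and 1.42 CPM (27 h), while without nitrogen it averaged 69.5 CPM (51 h) and 15.2 CPM (27 h). The change in nitrate was smaller by 2.44 (SE 0.46, edgeR adjusted p = 0.00457), and it was smaller by 2.20 than in glutamate (SE 0.46, edgeR adjusted p = 0.0188). It was also smaller than in glutamine, by 2.47 (SE 0.53, edgeR adjusted p = 0.00483). Glutamine cultures averaged 5.28 CPM (51 h) and 1.13 CPM (27 h) of this locus. Leaving out 1 library ended the call against no nitrogen in 1 of 12 fits, without nitrate 27 h replicate 3 (edgeR adjusted p = 0.157). Against glutamate it ended in 5 of 12, with edgeR adjusted p of 0.357 without nitrate 27 h replicate 3, 0.0679 and 0.0726 without replicate 1 of nitrate at 27 h and at 51 h, 0.0726 without nitrate 51 h replicate 3 and 0.0537 without glutamate 51 h replicate 3.

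The rule named 3 further loci of this kind against glutamine. Locus_1115 stood at 48.9, 63.3 and 55.4 CPM at 51 h in nitrate, against 30.0, 40.1 and 37.1 CPM at 27 h. These did not overlap, yet the change of 0.65 did not pass (edgeR adjusted p = 0.935). Glutamine cultures averaged 1.60 CPM of it at 51 h and 66.2 CPM at 27 h, and the changes differed by 6.28 (SE 0.64, edgeR adjusted p = 1.37e-08). In nitrate Locus_12170 averaged 1.21 CPM at both times, while in glutamine it averaged 80.2 CPM (51 h) and 4.16 CPM (27 h), a difference of −4.34 (SE 0.58, edgeR adjusted p = 5.25e-06). In nitrate Locus_203 averaged 4.99 CPM (51 h) and 9.27 CPM (27 h), while in glutamine it averaged 163 CPM (51 h) and 17.8 CPM (27 h), a difference of −4.08 (SE 0.43, edgeR adjusted p = 2.81e-08).

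Fewer loci were called on the second day than on the first. From 3 to 27 h in nitrate 957 loci changed, 449 higher and 508 lower (5.45%), against 68 from 27 to 51 h. The 2 changes share the 27 h libraries, so only their difference was tested, and it passed at 124 loci (0.706%), 81 with a larger (0.461%) and 43 with a smaller second-day change (0.245%). Of the 63 risen loci 35 were among the 81, and of the 5 fallen loci Locus_134 and Locus_568 were among the 43. The difference holds the same 51 h and 27 h libraries that chose these loci, which draws both counts up. The count of 124 was 37 without 27 h replicate 1, 46 without 27 h replicate 3, 68 without 27 h replicate 2, 77 without 51 h replicate 2 and 217 (123 larger, 94 smaller) with the replicate number as a block. Under limma on log2(TPM + 1) 8 were larger and 1 smaller. Locus_7345, described above, was also named by this difference, at 4.65 (SE 0.96, edgeR adjusted p = 0.00845), and without 51 h replicate 2 this was 2.58 (edgeR adjusted p = 0.0362). It was not called without 27 h replicate 1 or 27 h replicate 3, at edgeR adjusted p of 0.0855 and 0.13.

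The risen loci were also looked up in the first day without nitrogen, which shares no library with the second day in nitrate and in which 27.1% of all loci changed. There 11 of the 63 were higher and 19 lower, with a median log2 fold change of −0.20. The 11 are 17.5% of the risen loci, where 12.9% of all loci were called higher, and the 19 are 30.2%, where 14.2% were called lower. Of the 5 fallen loci, 0 were higher and 4 lower on that day.

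RNA from whole cultures does not separate fewer cells of a kind from less RNA per cell, and every level here is relative to the rest of its library. The sequencing run moved with the share of counts in the most abundant loci, and fits with run as a covariate and within each run were made. With run as a covariate, 60 of the 63 risen and all 5 fallen loci were called. Of the same loci, 17 risen and 0 fallen were called within run 1, which holds 1 library at 51 h and 2 at 27 h, and 27 risen and 1 fallen within run 2, which holds 2 and 1. The lone library of a time in these fits is assumed to vary like the other groups of its run, and fewer libraries enter, so these counts do not isolate the part of the run.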

How the data were processed

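RNA depleted of ribosomal RNA was sequenced from 39 libraries, strand-specific and in single reads of 125 bp over 2 runs, per the labels' protocols. The authors deposited read counts, as whole numbers, and TPM values for 18495 loci. FastQC, STAR, RSEM and edgeR 3.4.0 are named in the submitters' processing notes, with no roles; the assembly, strand setting, filters and the use of the duplicate cultures are not given in the sources used. Reads of near-identical loci may be split between them.

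Counts were tested with edgeR 4.0.16 in R 4.3.3: filterByExpr (926 loci removed, 0.0235% of counts), TMM factors, and 1 quasi-likelihood fit of all 39 libraries with a mean per group, Benjamini-Hochberg over 17569 loci, threshold 0.05. SE was derived from the F value. CPM is on TMM-scaled totals, with a prior count of 2 for log2 values. The fit was tested on simulated counts. Exact permutation tests were used for single values per library.

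Loci named in a comparison are the 2 that rose most and the 2 that fell most, by log2 fold change, of those called that did not overlap and averaged 10 CPM or more. For a difference of changes, the overlap is that of the 3 same-numbered pair differences of each change, so the libraries themselves may overlap. Members and lists were chosen with earlier results of these data known. No pair of libraries agreed within sampling noise (lowest chi-square per degree of freedom 18.4). The numbers pair the libraries, per the labels, and the main fit leaves this pairing out. Deviations from the group means correlated at 0.139, 0.121 and 0.247 for equal numbers. Replicates 1 and 3 each kept to the same run at both times, so these correlations do not separate the repeat from the run. Alternatives were RLE factors, no filter, DESeq2 1.42.0, limma 3.58.1 on log2(TPM + 1) and log2(TPM + 0.1), replicate block, run, the compared groups alone, fits within a run, without 3 libraries that stand apart, and each library left out; block with run was added after seeing the data.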

Additional observations from a re-analysis of the deposited data

Results flagged for a closer look

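The 4 tests of a difference between changes each found loci that differed. The second-day change in nitrate differed from that without nitrogen at 54 loci, from that in glutamine at 311 and from that in glutamate at 36 (edgeR, interaction contrasts, adjusted over all tested loci). It differed from the first-day change in nitrate at 124 loci, a count that leaving out 1 of 4 nitrate libraries moves by more than 1.5 times.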

How the results depend on the processing

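No result reversed. The second-day total of 68 was 12 and 13 under limma on log2(TPM + 0.1) and log2(TPM + 1) (12 and 13 higher, 0 and 0 lower), 42 within run 1 (0 lower) and 28 within run 2 (27 higher, 1 lower). The 5 lower loci were 8 under DESeq2, 10 with run as a covariate, and 12 both with the replicate block and with block and run. Leaving out 1 library gave 46 to 78 called, 44 to 76 higher and 2 to 6 lower. The blocked fit called 62 of the 63 risen loci, DESeq2 all 63 and limma on log2(TPM + 1) 13. Against no nitrogen (54) the alternatives gave 35 with the compared groups alone, 94 under DESeq2, 3 and 5 under limma and 36 to 61 with 1 library left out. Against glutamine (311) they gave 473 under DESeq2, 25 and 32 under limma (24 larger, 8 smaller at a pseudocount of 1), 471 with the block and 199 (without nitrate 27 h replicate 1) to 294 with 1 library left out. Against glutamate (36) they gave 68 under DESeq2, 2 and 2 under limma, 67 with the block, and 26 to 39 with 1 library left out. Against the first day (124) they gave 44 with the compared groups alone, 265 under DESeq2, 8 and 9 under limma, 217 with the block and 37 to 138. The cause of these shifts was not tested. On the log2(TPM + 1) scale the median second-day change of all loci was 0.19, against −0.01 in edgeR. Of 448 alternative values of the named loci, 386 kept their call and 62 lost it, 25 of these under limma. With 3 libraries a group, small changes of rare loci are not detectable.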

Other observations

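The 67 loci with a mean above 1000 TPM are set apart by a limit chosen after the values were seen. In the edgeR fit 0 of them were called, with 2 at an unadjusted p below 0.05, and limma and DESeq2 also called 0. Their median log2 fold change, 51 h over 27 h, was −0.21, with 50 lower and 17 higher, where the median over all tested loci was −0.01. Under limma on log2(TPM + 1), where the median of all loci also differs as given above, 38 were lower and 29 higher. Within the 3 repeats the median difference was −0.18, −0.88 and −0.18, and the repeat at −0.88 is the one whose 2 libraries were sequenced in different runs. The median was −0.09 with run as a covariate, −0.09 within run 1 and −0.22 within run 2. It was −0.73 without 51 h replicate 1 and −0.11 without 27 h replicate 1. Leaving out 27 h replicate 1 gave 37 lower and 30 higher, and leaving out 27 h replicate 2 gave 55 lower and 12 higher.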
